A study of Homo sapiens with 4 samples.

Results

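The genes described here are 10 transcripts that report on ERK signaling: the transcription factors EGR1, ETV4 and ETV5, the ERK phosphatases DUSP4, DUSP5 and DUSP6, and the feedback inhibitors SPRY2, SPRY4, SPRED1 and SPRED2. They were chosen by name as transcriptional outputs and negative feedback of the pathway downstream of KIT, and every probe carrying 1 of these names was kept. The array held 11 such probes (2 for SPRY4, 1 for each other gene) among 50599 probes with 36337 gene names. RNA came from GIST-T1 cells, an established human gastrointestinal stromal tumor (GIST) line that carries an activating KIT mutation. The cells were nucleofected with 100 pmol of a mimic of miR-335 (synthetic RNA standing in for the mature microRNA), or with the same amount of mirVana Negative Control #1. Total RNA was taken 48 h later and hybridized to 1-color Agilent arrays, 2 per group. No other cell line and no untransfected cells entered the comparison. The titles, the transfection field and the series' design text name miR-335 for the treated samples, but their descriptions also carry a miR-34a name, and the array does not measure the mimic itself; the groups were kept as the transfection field gives them.

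ERK, the last kinase of the RAS, RAF and MEK cascade, is switched on by receptor tyrosine kinases such as KIT, and in GIST a mutated KIT keeps it active. Active ERK raises transcription of immediate early genes such as EGR1 and of PEA3-family factors such as ETV4 and ETV5. It also induces its own brakes: DUSP phosphatases remove phosphate from ERK, whereas Sprouty and Spred proteins act upstream, between the receptor and RAF. The RNA levels of these genes are therefore widely used as a readout of pathway activity, although each also answers to other signals. Protein and phosphorylation were not measured on these arrays.

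The microRNA and the regulatory stretches that the results refer to are shown first. The mimic's arm is not named in the sources used here, so both mature arms of miR-335 are given, from RefSeq with GRCh38.p14 coordinates. Capitals mark the seed, bases 2 to 8, which pairs with target RNAs. The arms lie at chr7:130496126-130496148 and chr7:130496162-130496183, both on the plus strand.
hsa-miR-335-5p: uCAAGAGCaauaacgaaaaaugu
hsa-miR-335-3p: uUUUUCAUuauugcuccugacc
The DNA letters that pair with these seeds are GCTCTTG for the 5p arm and ATGAAAA for the 3p arm. The first occurred in 0 of the 11 probes of these genes and in 100 of the 20328 probes tested (0.492%). The second occurred in 0 of 11 and in 214 of 20328 (1.05%). A probe covers 60 bases of a transcript, so these counts say nothing of the rest of each gene.

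EGR1 is shown with the 250 bases before its gene start (RefSeq, GRCh38.p14, chr5:138465229-138465478, plus strand), because it was the member that passed the test. Capitals mark matches to the CArG box, the motif bound by serum response factor, through which ERK is known to act on EGR1.
EGR1 upstream: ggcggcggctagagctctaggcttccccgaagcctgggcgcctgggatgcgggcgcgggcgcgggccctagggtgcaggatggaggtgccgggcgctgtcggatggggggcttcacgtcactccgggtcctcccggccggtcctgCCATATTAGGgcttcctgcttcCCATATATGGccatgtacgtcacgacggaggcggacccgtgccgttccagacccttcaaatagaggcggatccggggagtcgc
The 2 boxes began 105 and 83 bases before the gene start. On either strand, a CArG box occurred in 407 of 35116 windows of this length (1.16%), and of the 9 windows found for 6 of the 10 genes it occurred in that of EGR1. GCGGGGGCG, the EGR motif, occurred in 1 window of SPRY2 and in 4.72% of all windows, whereas CCGGAAG, an ETS motif, occurred in 0 of the 9 and in 8.52% of all. A match is a string of letters, not evidence of binding, and no match says only that these letters are not in this window.

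Of the 10 genes, EGR1 fell with the miR-335 mimic, and no other member passed the adjusted threshold. DUSP6 and DUSP5 were lower by -0.29 and -0.32 on the log2 scale, outside the range of their control arrays. Neither passed, although both did under some alternative settings. The other members lay within 0.19 of the control on the same scale. Levels below are log2 processed signal minus the 75th percentile of the array, so 0 marks a probe at that percentile and 1 unit is a doubling. Changes are mimic minus control ± SE from limma, adjusted by the Benjamini-Hochberg method over all 20328 probes tested, with a threshold of 0.05. Each of the 11 probes exceeded background clearly on every array, and all were tested. With 2 arrays against 2, an exact two-sided permutation test of a single gene cannot give a p below 0.333. The labels do not say that the arrays came from separate transfections. The p-values thus measure the spread between these arrays, which may be technical. In limma each SE and p also draws on the spread of all probes tested, not only on that probe's own values.

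EGR1 (probe at chr5:137804891-137804950, plus strand, hg19) encodes an immediate early zinc finger transcription factor. Its level was 4.97 and 4.93 on the control arrays and 4.27 and 4.32 on the mimic arrays. In processed intensity these were 5615 and 5536 against 3651 and 3642. Both mimic arrays were thus far below both control arrays, while the arrays of a group lay close together. EGR1 fell by 0.66 ± 0.04 (SE, n = 2 each) on the log2 scale, or by 36.7%, with a 95% interval of the fold from 0.580 to 0.690 and a limma adjusted p of 0.0348. It stood at rank 115 of 20328 by p, and 2.87% of tested probes had a larger change in either direction. Leaving out any 1 of control 1, control 2, mimic 1 and mimic 2 left the change between -0.68 and -0.64. The call was lost in each of these fits. They leave 1 array in a group and called almost none of all probes tested, so this loss is not particular to EGR1. Over all alternatives with an adjusted p, the change ranged from -0.85 to -0.63 and the adjusted p from 3.09e-05 to 0.411.

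ETV5 and ETV4 encode ETS factors of the PEA3 family. ETV5 (chr3:185764547-185764606, minus strand) had levels of 3.54 and 3.52 in the control and 3.37 and 3.45 with the mimic. The groups did not overlap, but the change of -0.12 ± 0.05 had a limma adjusted p of 0.223. ETV4 (chr17:41605966-41606025, minus strand) had levels of 1.44 and 1.54 in the control and 1.56 and 1.61 with the mimic. Here the mimic arrays were the higher ones, by a narrow margin over control 2, and the change of 0.09 ± 0.06 had a limma adjusted p of 0.38. The 95% intervals, -0.25 to 0.01 for ETV5 and -0.07 to 0.26 for ETV4, leave room for small differences in either gene.

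**Figure D1:**
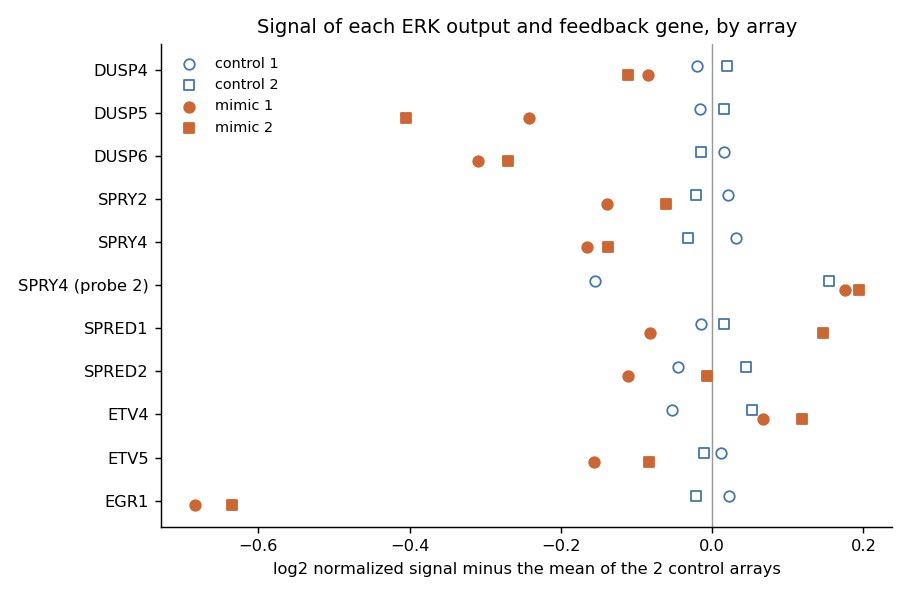
Log2 normalized signal of each of the 11 probes on each array (horizontal axis), minus the mean of the 2 control arrays, with open symbols for control and filled symbols for mimic arrays. Both EGR1 mimic arrays lie over 0.6 below the control arrays, those of DUSP5 and DUSP6 lie further left than their control arrays, and the groups overlap for SPRED1 and SPRED2.

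The phosphatases differed among themselves. DUSP6, a cytoplasmic phosphatase with high preference for ERK (chr12:89742144-89742203, minus strand), had levels of 7.35 and 7.32 in the control and 7.02 and 7.06 with the mimic. Its arrays separated by several times the difference between replicates. The change was -0.29 ± 0.04 (fold 0.818, 95% interval 0.755 to 0.886), with an unadjusted p of 0.0028 and a limma adjusted p of 0.0672, above the threshold. DUSP5, a nuclear phosphatase of ERK (chr10:112270900-112270959, plus strand), had levels of 0.63 and 0.66 in the control and 0.40 and 0.24 with the mimic. The mimic arrays were both lower and lay further apart than the control arrays. The change of -0.32 ± 0.07 had an unadjusted p of 0.0129 and a limma adjusted p of 0.114. DUSP4, a nuclear phosphatase that also acts on other MAP kinases, had levels of 2.85 and 2.89 in the control and 2.78 and 2.75 with the mimic. Its mimic arrays were slightly lower without overlap, by -0.10 ± 0.04, and its limma adjusted p was 0.242.

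Among the Sprouty genes, whose products restrain signaling from receptors to RAS and RAF, SPRY2 (chr13:80910622-80910681, minus strand) had levels of 5.67 and 5.63 in the control and 5.51 and 5.58 with the mimic. The lower control array exceeded the higher mimic array by 0.04, and the change of -0.10 ± 0.05 had a limma adjusted p of 0.297. The SPRY4 probe with the higher signal (chr5:141690571-141690630, minus strand) gave 5.30 and 5.23 in the control and 5.10 and 5.13 with the mimic. Its groups did not overlap, and the change of -0.15 ± 0.04 had an unadjusted p of 0.0298 and a limma adjusted p of 0.156. The other SPRY4 probe (chr5:141694487-141694546, minus strand) starts to the 5′ side of the first in transcript order, with 3856 bases of genome between them. Its sequence, from the array files, is shown because the probes of this gene went opposite ways.
SPRY4 second probe: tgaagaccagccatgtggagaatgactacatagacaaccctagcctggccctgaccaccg
It gave -1.76 and -1.45 in the control and -1.43 and -1.41 with the mimic. Control 1 stood apart on this dim probe, whereas control 2 and both mimic arrays were nearly level. The change of 0.19 ± 0.12 had a limma adjusted p of 0.407, so the direction of SPRY4 was not settled by its 2 probes.

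The Spred genes encode membrane proteins that bring neurofibromin to RAS. SPRED1 (chr15:38645760-38645819, plus strand) had levels of 0.17 and 0.20 in the control and 0.10 and 0.33 with the mimic. The mimic arrays lay on both sides of the control arrays, and the change of 0.03 ± 0.09 had a limma adjusted p of 0.852. SPRED2 (chr2:65538851-65538910, minus strand) had levels of 2.38 and 2.47 in the control and 2.31 and 2.42 with the mimic. These groups overlapped too, with a change of -0.06 ± 0.06 and a limma adjusted p of 0.59. The 95% intervals ran from -0.24 to 0.30 for SPRED1 and from -0.24 to 0.12 for SPRED2, so a difference of the size seen for EGR1 lies outside both.

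**Figure D2:**
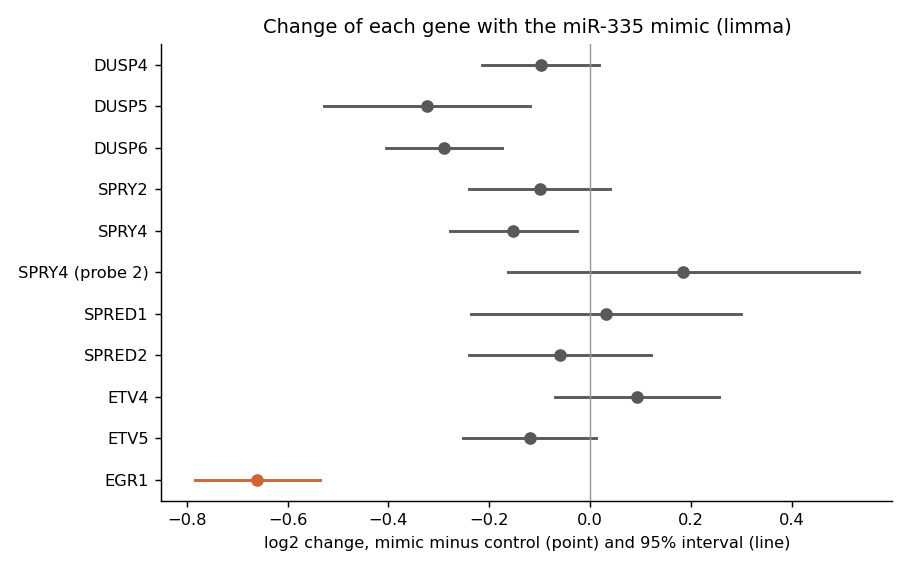
Log2 change (mimic minus control) of each probe as a point with its 95% limma interval as a line, n = 2 arrays per group; orange marks the probe past the adjusted threshold. The EGR1 interval (-0.78 to -0.54) overlaps that of no other member, those of DUSP6, DUSP5 and the first SPRY4 probe lie below 0, and the other 7 include 0.

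Counted together (DUSP4 being measured at chr8:29194382-29194441, minus strand), 1 of the 11 probes passed the adjusted threshold, against 2.62% of all probes tested. An unadjusted p below 0.05 was reached by 4 probes (EGR1, DUSP6, DUSP5 and the first SPRY4 probe), each lower with the mimic, and by 25.3% of all probes. The groups did not overlap for 9 of 11 probes (7 lower, 2 higher), against 59.7% of all probes. The sign was negative for 8 of 11, against 53.8% of all, and 1 of 11 exceeded a 1.5-fold difference, against 3.9% of all. The median change was -0.10, or -0.11 with 1 probe per gene, beside a median of -0.01 over all probes tested. These shares describe the list and carry no test, since the genes were not drawn at random and results of these data were known when they were chosen. In bulk RNA a smaller share of cells with the transcript and less transcript per cell cannot be told apart.

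**Figure D3:**
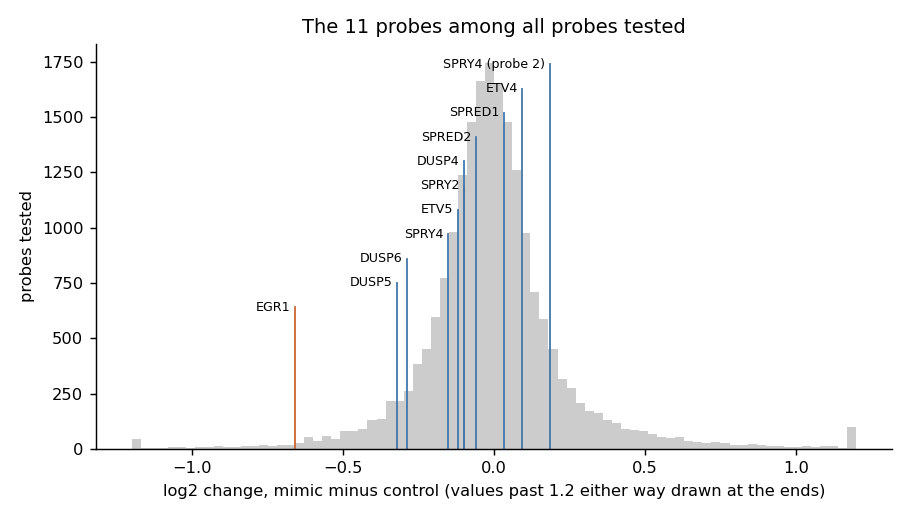
Histogram of the log2 change over the 20328 probes tested (grey, vertical axis: number of probes), with a vertical line at the change of each of the 11 probes; line heights only separate the labels. EGR1 (orange) lies in the left tail, DUSP5 and DUSP6 on its shoulder, and the other 8 within the bulk of the distribution; the SPRY2 line is nearly hidden by that of DUSP4.

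Whether the cascade above these genes also differed was examined with 26 genes from receptor to ERK and RSK. Of their 44 probes 41 were tested, covering 25 genes, and none passed the adjusted threshold in limma. An unadjusted p below 0.05 was reached by 10 of the 41, 8 lower and 2 higher (25.3% of all probes), and 23 of 41 (56.1%) were lower (53.8% of all), with a median of -0.02. These shares were near those over all probes. They carry no test, since this list too was chosen with results of these data known. KIT, the mutated receptor that drives this line, had the lowest adjusted p of the list. Its brightest probe gave 7.49 and 7.48 in the control and 7.14 and 7.17 with the mimic. That difference of -0.33 ± 0.04 had a limma adjusted p of 0.0512, just above the threshold. This probe passed under 5 of the alternative settings. The other 2 KIT probes gave -0.14 ± 0.04 and -0.06 ± 0.08. PDGFRA, the related receptor, gave -0.08 ± 0.04 with a limma adjusted p of 0.354.

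Further down, MAPK3, which encodes ERK1, gave 1.47 and 1.44 in the control and 1.44 and 1.47 with the mimic, so its groups overlapped and its limma adjusted p was 0.99. RPS6KA3, which encodes the ERK substrate RSK2, was lower by a like amount on both of its probes (-0.23 ± 0.05 and -0.24 ± 0.04), with limma adjusted p-values of 0.102 and 0.0756. The highest positive differences on brightest probes were 0.09 ± 0.04 for the adaptor GAB1, 0.09 ± 0.04 for the kinase ARAF and 0.05 ± 0.07 for NRAS. None passed the threshold, and the GAB1 probe was dim, with processed intensities from 47.9 to 54.1. The other ARAF probe was lower, at -0.13 ± 0.08.

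A wider list of 31 other ERK outputs and relatives of the members gave 27 tested probes for 21 genes, and 4 of the 27 (14.8%) passed the adjusted threshold, all lower. Over all probes 2.62% passed. The calls include both probes of 1 gene, SPRY1. An unadjusted p below 0.05 was reached by 13 probes, all lower (25.3% of all probes, in either direction). Of the 27, 22 (81.5%) were lower (53.8% of all), and the median was -0.16. The list was chosen with results of these data known, so these shares describe it and carry no test. EGR2, a relative of EGR1 and also an immediate early gene, gave 0.26 and 0.21 in the control and -0.33 and -0.31 with the mimic. It fell by 0.55 ± 0.04 on the log2 scale (limma adjusted p 0.0351), with its arrays separated as clearly as those of EGR1. Its probe was dimmer than that of EGR1, with processed intensities of 214 and 210 against 151 and 148. The size of its change depended more on background handling: it was -0.39 with normexp background correction, where EGR1 gave -0.63. SPRY1, a Sprouty gene like SPRY2 and SPRY4, fell on both probes. The brighter gave 6.10 and 6.13 against 5.74 and 5.77, a fall by 0.36 ± 0.04 (limma adjusted p 0.0483), and the other fell by 0.34 ± 0.04 (adjusted p 0.047). EPHA4, an ephrin receptor, gave 2.64 and 2.65 against 2.22 and 2.22 and fell by 0.43 ± 0.04 (limma adjusted p 0.0388). As for EGR1, each of these calls was lost when any 1 of the 4 arrays was left out, where almost none of all probes tested passed. The SPRY1 calls lay closest to the threshold: the brighter probe also missed it with quantile scaling (limma adjusted p 0.0564), and both probes missed it with robust eBayes.

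FOS, the classical immediate early partner of JUN, gave -0.25 and -0.42 in the control and -0.66 and -0.80 with the mimic. Its groups did not overlap, but the difference of -0.40 ± 0.09 had a limma adjusted p of 0.117. The highest positive differences were 0.12 ± 0.08 for MYC, 0.09 ± 0.05 for DUSP16 and 0.07 ± 0.06 for FOSB, none past the threshold. The MYC and FOSB probes were dim, with processed intensities from 37.2 to 44.8 and from 71.6 to 80.3. Among the early genes of the EGR and FOS families with a tested probe, EGR1 and EGR2 thus passed and FOS and FOSB did not. A RefSeq window was found for 26 of the 31 genes, and a CArG box occurred in those of EGR2 and SRF. SPRY1 and EPHA4, which also passed, had windows without a box, as had FOS and FOSB. Each window holds only the 250 bases before a gene start, so boxes further away were not searched for. SRF, which encodes serum response factor itself, gave -0.07 ± 0.23 with overlapping groups and a limma adjusted p of 0.871. The 30 bases around the EGR2 box (GRCh38.p14, chr10:62816418-62816447, minus strand, box in capitals, starting 71 bases before a RefSeq gene start) are shown beside the EGR1 stretch. These genes were picked because they passed the test and had a box, so the pair does not link the box with a fall.
EGR2 box: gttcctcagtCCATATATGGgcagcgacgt
Its box has the same 10 letters as the second box of EGR1.

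**Figure D4:**
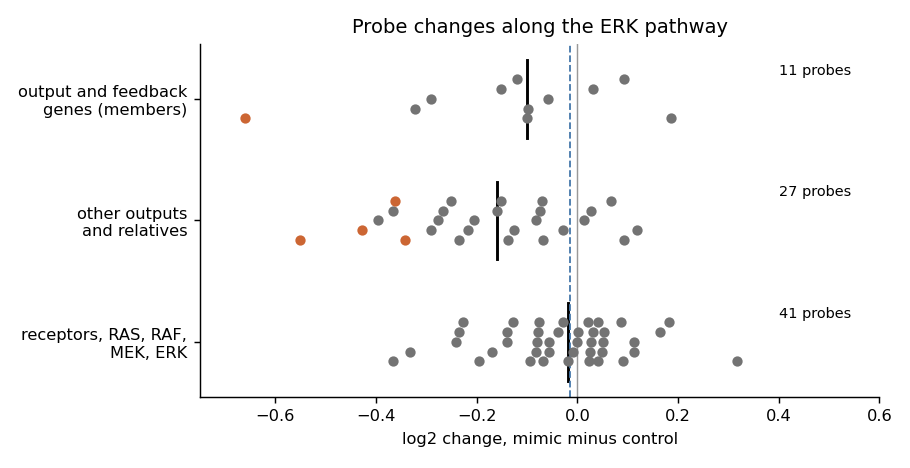
Log2 change (mimic minus control, horizontal axis) of every tested probe of the 10 genes (11 probes), of the other outputs and relatives (27) and of the cascade from receptor to ERK and RSK (41). Each point is a probe, orange points passed the adjusted threshold, black bars are list medians (-0.10, -0.16 and -0.02), the dashed line is the median of all probes tested (-0.01), and the vertical offset of points is for legibility.

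The direction of small changes depended on how arrays were scaled. Scaling to the external spike-in probes, RNAs added in fixed amount, moved the median of all tested probes to -0.20, and all 11 probes of the 10 genes were then negative. On that scale the median of the 11 was -0.287, and EGR1 was at -0.85. ETV4, SPRED1 and the second SPRY4 probe changed sign (-0.09, -0.16 and -0.00). Quantile scaling, scaling to the median of detected probes and normexp background correction kept the sign of all 11. The fall of EGR1 was below the median of all probes under each scaling.

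**Figure D5:**
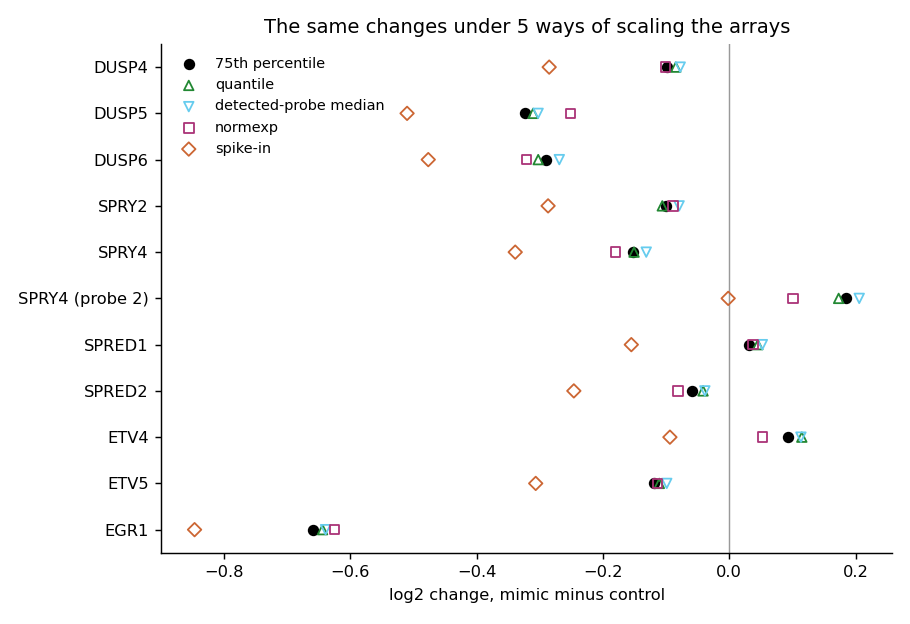
Log2 change (mimic minus control) of each of the 11 probes under 5 ways of processing the arrays, 1 symbol each. Spike-in scaling (diamonds) lies to the left of the other 4 for every probe, and EGR1 lies at -0.63 or lower under all 5.

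The labeled cell type was checked against its markers. All 14 probes of 7 GIST and Cajal cell markers (KIT, ANO1, ETV1, PRKCQ, GPR20, CD34 and PDGFRA) were detected above background on every array. In limma 0 passed the adjusted threshold (2.62% of all probes did), and 4 had an unadjusted p below 0.05 (25.3% of all). Of the 14, 12 were lower (85.7%, against 53.8% of all). The ANO1 probes went opposite ways: the brighter gave -0.07 ± 0.04 and the other 0.47 ± 0.05 (limma adjusted p 0.0533). Of 15 probes for 8 markers of other cells, 2 were tested. EPCAM, an epithelial marker, gave -0.54 and -1.59 in the control and -2.15 and -1.76 with the mimic (-0.89 ± 0.42, limma adjusted p 0.287), with control 1 apart from the rest. DES, a smooth muscle marker, was lower by -0.25 ± 0.08 (limma adjusted p 0.177). PTPRC, PECAM1, CDH1 and MYH11 were well above background on 0 arrays. CD68 and CDH5 were each well above background on 1 control and 1 mimic array, and were not tested. The part of EPCAM and DES in the results above was not tested. Across arrays, 40.3% to 41.9% of probes were well above background, the 75th percentile lay between 178.8 and 189.7 intensity units, and no spot was saturated.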

How the data were processed

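The authors deposited spot intensity values from Agilent Feature Extraction 10.7 (per the submitters' processing notes), background-subtracted and not normalized between arrays. The study's methods name GeneSpring GX for its own analysis, which was not used here. The deposited value table of the series held the same intensity, rounded, and 0 of its columns matched no sample. All 4 arrays came from 1 slide and 1 scan.

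Control and outlier spots (356 to 395 per array) were left out, spots of a probe were averaged, and each array's 75th percentile was subtracted on the log2 scale. Probes with a value on all 4 arrays and called well above background on both mimic arrays, both control arrays or all of them were tested (20328 probes, 15454 gene names) with limma 3.58.1 in R 4.3.3 (lmFit, eBayes without trend, no covariates). The number of arrays limits the precision. A run on simulated data required only that planted changes, all 1.5-fold or larger, correlated closely with the fitted ones. It set no limit on false calls. Figures used matplotlib 3.10.9. Groups followed the transfection label.

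Besides the members, the text names KIT, PDGFRA, MAPK3, every cascade or output gene past the threshold, and in each of these lists the 3 largest rises and falls on brightest probes; 1 cascade gene that this rule names is not reported here. ARAF's other probe, the markers and CArG-bearing SRF were added for completeness. The members and lists were chosen with earlier results of these data known. Gene names and hg19 coordinates were those of the array files. Upstream windows, from RefSeq (GRCh38.p14), were matched by symbol for 6 of the 10 members, and microRNAs by name. Probe positions relative to exons or untranslated regions were not analysed here. Alternatives covered scaling, background correction, filtering, variance model, the methods' t-test (Benjamini-Hochberg and unadjusted), a replicate block and leaving out each array.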

Additional observations from a re-analysis of the deposited data

How the results depend on the processing

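The count of 1 member past the threshold (EGR1) was also found with quantile scaling, the median of detected probes and a filter on all 4 arrays. The series table and robust eBayes gave it too. In that order, these settings called 2.47%, 2.65%, 3.04%, 2.52% and 2.35% of all probes. The member count was 8 with spike-in scaling, 3 with normexp (EGR1, DUSP6 and DUSP5) and 4 with an intensity trend (these and the first SPRY4 probe). It was 0 with no filter, where 3627 of all probes had an unadjusted p below 0.05. With the methods' t-test it was 0 after Benjamini-Hochberg adjustment (3 unadjusted, 4115 over all probes). Leaving out each array gave 0 to 0. With the replicate number as a block it was 0 (4400 probes unadjusted), and that of the outputs was 0. The replicate numbers were given by order within each group, and the sample titles name no pairs. Replicate differences of the 2 groups correlated at 0.03 across probes, which does not show whether any arrays were paired. The 4 calls among other outputs became 20 with spike-in scaling, 9 with the trend, 6 with normexp, 3 with quantile scaling (the brighter SPRY1 probe lost), 2 with robust eBayes (both SPRY1 probes lost), 0 with no filter, 8 with the t-test unadjusted and 0 adjusted, and 0 to 0 without single arrays. The 0 calls in the cascade became 26 with spike-in scaling, 7 with the trend and 3 with normexp. They became 1 with the detected median, 1 with the filter on all 4 arrays and 9 with the unadjusted t-test. The 1 call with the detected median and with that filter was the brightest KIT probe (limma adjusted p 0.0489 and 0.0443). This probe also passed with spike-in scaling, normexp and the trend. The members' median of -0.10 became -0.287 with spike-in scaling and -0.139 to -0.0835 without single arrays. Calls over all probes, 532 (233 lower, 299 higher), became 9386 with spike-in scaling (8872 lower, 514 higher), 1550 with normexp, 3083 with the trend, and 0 with no filter, the adjusted t-test and the block; without single arrays they were 0 to 8. Signs turned with spike-in scaling for SPRED1 (-0.155), ETV4 (-0.0940), the second SPRY4 probe (-0.00169), NRAS (-0.133), ARAF (-0.0993), GAB1 (-0.0959), FOSB (-0.120), DUSP16 (-0.0936) and MYC (-0.0694). Without single arrays, SPRED1 ranged from -0.0825 (without mimic replicate 2) to 0.146, NRAS from -0.00533 (without mimic replicate 1) to 0.113 and MAPK3, near 0, from -0.0175 to 0.0158 (above 0 without control or mimic replicate 1); MAPK3 also turned with quantile scaling (0.0118), the detected median (0.0198) and the series table (4.52e-05). The cause of these shifts was not tested. A slide or scan block could not be run, as all arrays shared both. With 2 arrays a group, SEs of 0.04 to 0.12 on the log2 scale limited what could be resolved for the members, most for the dim second SPRY4 probe.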
